A study of Mus musculus with 20 samples.

Results

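Livers of progeroid Ercc1Δ/- mice and of wild type littermates, both kept on a restricted diet, were compared. The comparison takes in every array whose source name reads progeroid and restricted (5 animals) or wild type and restricted (5 animals), 10 of the 20 arrays of the series, and all 17097 genes that the arrays measure with a named probe set. The progeroid animals carried 1 truncated (Δ) and 1 null allele of Ercc1. Their littermates were wild type at that locus. All mice were F1 hybrids of C57BL6J and FVB, were fed the purified diet AIN93G and were 11 weeks old when liver RNA was taken. Restriction began at 7 weeks of age at 10% and reached 30% at 9 weeks. Per the labels, wild type mice ate 3.0 g a day, which set the wild type 30% ration at 2.1 g, and a 30% ration of 1.6 g is also given without a genotype, so the 2 genotypes may have received different amounts. The Ercc1 defect is germline, so each liver cell type carries it. The other 10 arrays, from progeroid and wild type mice of the same age on the control diet, are used to show how the same genotype contrast looked without restriction. Where values of single animals are listed, the progeroid livers stand in the order 362, 365, 366, 368 and 369 and the wild type livers in the order 421, 422, 423, 424 and 425.

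ERCC1 forms an endonuclease with XPF (Ercc4) that cuts DNA beside bulky lesions (nucleotide excision repair) and beside crosslinks between strands. Mice with little of it age early, with marked changes in the liver, and restricted feeding is known to extend their lives. In liver, restricted feeding itself shifts genes of fat synthesis, fat burning and sex-dependent metabolism. A genotype difference between restricted animals is therefore read on top of a diet effect, which need not be equal in both groups.

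The values are log2 intensities from RMA, a procedure that corrects background, equalises the arrays and summarises the probes of a set. They have no zero point and no call of presence, and differences of dim genes are understated. Medians of the 20 arrays lay between 4.17 and 4.21. Hepatocyte genes were near the top of the scale in all 10 restricted livers, with Alb, the plasma albumin, at 14.36 to 14.40 in the progeroid livers and 14.29 to 14.38 in the wild type livers. RNA integrity, read as the 3' minus the 5' probe set of Gapdh, was 0.81 ± 0.24 in the progeroid livers and 0.76 ± 0.12 in the wild type livers (SD, n = 5 each; two-sided exact permutation test, p = 0.714). Animal 362 stood apart among the progeroid livers. It lay at -10.24 on the first principal component of the restricted arrays, against -23.60 to -35.82 in the other 4, and at 26.98 on the second, where the others ran up to 3.16. Animal 421 stood apart among the wild type livers, at 15.43 on the first component against 22.56 to 31.24 in the other 4. Counts without them are given below for some gene lists only, and counts of other lists moved as well.

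Ercc1 was at 5.00, 4.49, 5.08, 4.71 and 4.71 in the progeroid livers, against 6.36, 6.04, 6.09, 6.14 and 6.13 in the wild type livers. The groups did not overlap (log2 difference -1.35 ± 0.098 SE, 2.56-fold lower, adjusted p = 1.73e-08). Of its 4 probe sets 2 were lower and 2 did not pass, with log2 differences of 0.02 and -0.11. Which part of the transcript each probe set covers is not given in the sources used here, so the probe sets that did not pass check nothing about the alleles.

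At an adjusted p under 0.05 (limma, Benjamini-Hochberg over all probe sets with 1 symbol), 1941 genes were higher in restricted progeroid livers (11.4% of the genes tested) and 848 were lower (4.96%). The median difference over all genes was -0.0026 on the log2 scale. Among the genes that rose, 727 did so by at least 1.5-fold, 211 by at least 2-fold and 31 by at least 4-fold. Among those that fell, the counts were 204, 64 and 12. The groups did not overlap for 1229 of the genes that rose and 491 of those that fell, where 7.95% of all genes were fully apart upwards and 3.94% downwards. The split between higher and lower depended on the scaling: 69.6% of calls were higher on the deposited scale, and 50.7% (1589 higher, 1546 lower) when each array was centred on its own median, which moved the median difference to -0.056.

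For the largest rises and falls, only genes whose groups did not overlap were ranked. The lack of overlap of these genes follows from that rule. Among them, the largest rises were led by Afp, alpha-fetoprotein, the plasma protein of the fetal liver. Afp had 7.35, 7.64, 7.68, 8.69 and 7.65 in the progeroid livers, against 4.07, 4.12, 4.11, 3.68 and 3.84 in the wild type livers. Each progeroid liver was more than 3 log2 units above the wild type range (14.3-fold higher, log2 difference 3.84 ± 0.17 SE, adjusted p = 1.57e-11). Clec2h, which encodes a C-type lectin-like protein, had 5.52, 7.65, 7.75, 8.92 and 8.73 in the progeroid livers, against 4.07, 4.68, 3.58, 3.54 and 4.08 in the wild type livers. Animal 362 was the lowest progeroid liver, and the groups were still apart (13.2-fold higher, adjusted p = 0.000101). Gpx6, a glutathione peroxidase, had 6.84, 7.85, 8.21, 7.54 and 7.40 in the progeroid livers, against 4.16, 4.67, 4.05, 3.91 and 4.46 in the wild type livers. That was a 9.96-fold rise with no overlap (adjusted p = 6.32e-09).

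Other large rises concerned genes with varied known roles. Olig1, a transcription factor best known from oligodendrocytes, was 8.01-fold higher, at 7.15 to 8.49 in the progeroid livers and 4.30 to 5.44 in the wild type livers (adjusted p = 1.14e-07). Blnk, an adaptor of B cell receptor signalling, was 6.21-fold higher (adjusted p = 2.96e-07), and Gal3st1, which sulfates galactolipids, was 5.77-fold higher (adjusted p = 6.32e-09). Spc25, a subunit of the NDC80 complex of the kinetochore, had 8.05, 7.25, 7.98, 7.94 and 7.96 in the progeroid livers, against 6.04, 5.33, 5.15, 4.94 and 5.55 in the wild type livers. This 5.41-fold rise (adjusted p = 9.66e-08) left all progeroid livers above all wild type livers. Nrep, Osbpl3 (an oxysterol-binding protein), Cib3 and Tff3 (a trefoil factor) were 6.01-fold, 5.98-fold, 5.41-fold and 5.32-fold higher. Gbp10, a guanylate-binding protein of the interferon response, stood at 6.66 to 7.99 in the progeroid livers and 4.39 to 5.87 in the wild type livers (5.16-fold higher, adjusted p = 2.04e-05).

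The 15 largest falls, again ranked only among genes whose groups did not overlap, took in genes with varied known roles. Cyp2b10, a P450 induced through the receptor CAR, had 4.16, 4.45, 3.88, 3.66 and 4.01 in the progeroid livers, against 8.93, 5.29, 7.12, 9.13 and 10.43 in the wild type livers. The progeroid livers sat near the floor of the scale, while the wild type livers spread over about 5 log2 units (17.7-fold lower, log2 difference -4.15 ± 0.70 SE, adjusted p = 0.000357). Cyp17a1, the steroid 17-hydroxylase, had 8.92, 8.42, 6.90, 5.79 and 6.93 in the progeroid livers, against 11.19, 10.70, 11.31, 11.11 and 11.23 in the wild type livers. It was 13.1-fold lower with no overlap (adjusted p = 3.84e-05). Serpina12, the serpin vaspin, had 8.03, 7.85, 7.28, 7.13 and 7.40 in the progeroid livers, against 11.13, 10.74, 10.69, 10.59 and 9.87 in the wild type livers. This was an 8.39-fold fall, again with the groups apart (adjusted p = 4.47e-07). Vldlr, a receptor for triglyceride-rich lipoproteins, was 4.80-fold lower (adjusted p = 5.93e-06), and 5 of its 5 probe sets fell. Camk1d, a calmodulin-dependent kinase, was 3.46-fold lower (adjusted p = 5.01e-08), and As3mt, which methylates arsenic, was 3.08-fold lower (adjusted p = 8.08e-06).

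**Figure D1:**
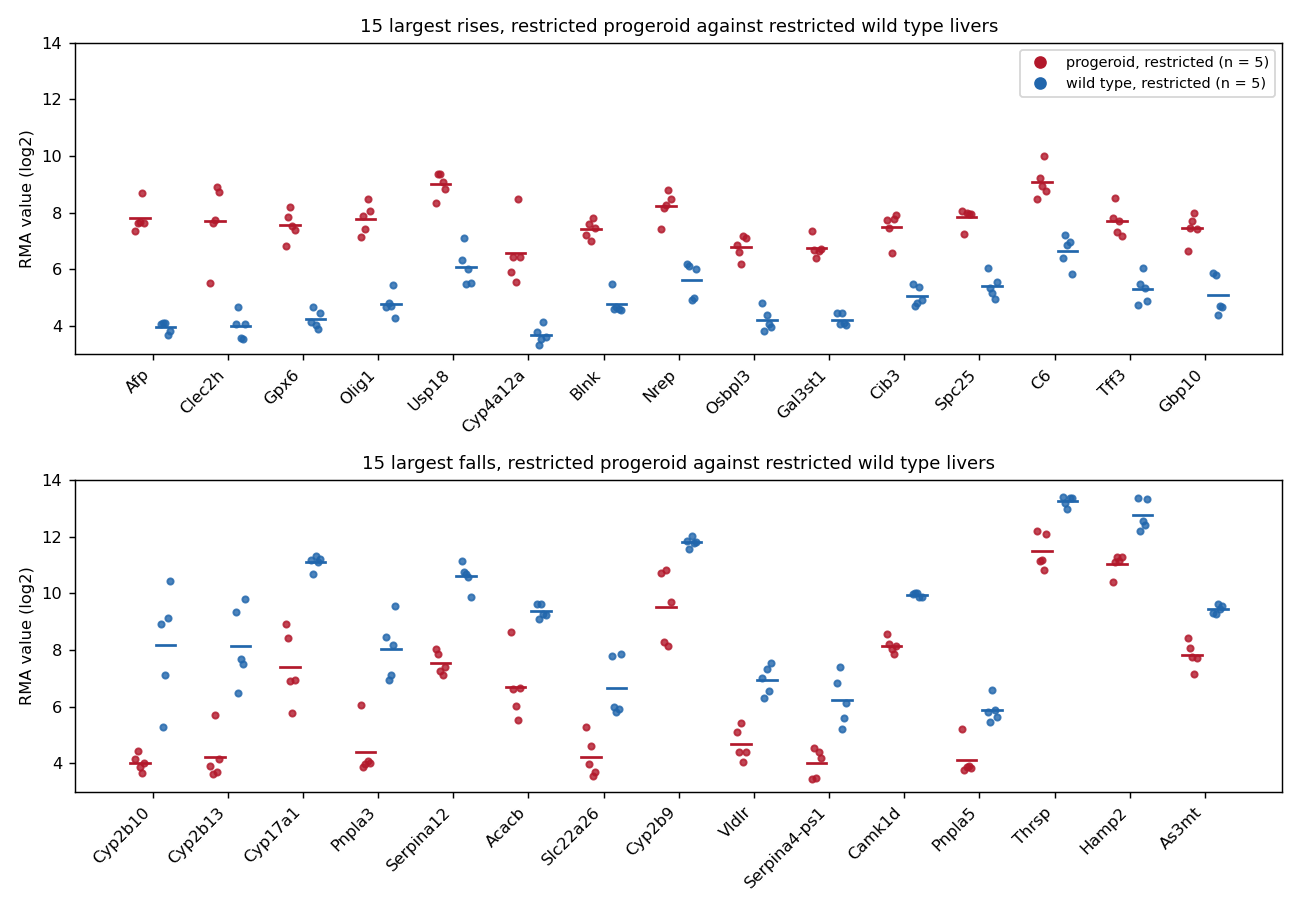
RMA values (log2, vertical axis) of the 15 genes with the largest rises (top) and the 15 with the largest falls (bottom) among genes whose groups do not overlap. Points are animals, progeroid restricted at left and wild type restricted at right of each pair, and bars are group means; Afp averaged 7.81 in progeroid and 3.96 in wild type livers, and Cyp2b10 averaged 4.03 in progeroid and 8.18 in wild type livers.

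p53 is the transcription factor that is stabilised after DNA damage and turns on genes of cell cycle arrest, repair and cell death. Of 27 measured p53 targets, 12 rose (44.4%), 1 fell (3.7%) and 14 did not pass, with a median log2 difference of 0.43 against -0.0026 over all genes. Over all genes 11.4% were higher and 4.96% lower, the shares to set beside every list count below. Without animal 362, 15 rose. Ccng1, cyclin G1, had 8.72, 9.53, 9.55, 9.71 and 9.34 in the progeroid livers, against 8.59, 8.63, 8.33, 8.13 and 8.57 in the wild type livers. Animal 362 was the progeroid liver closest to the wild type range (1.89-fold higher, adjusted p = 0.000144). Phlda3, a repressor of Akt, had 4.46, 5.67, 5.76, 6.34 and 5.28 in the progeroid livers, against 4.17, 3.48, 3.95, 4.11 and 3.67 in the wild type livers. It was 3.08-fold higher with animal 362 lowest (adjusted p = 0.000628). Cdkn1a, the cell cycle inhibitor p21, had 6.15, 6.87, 6.49, 6.88 and 6.28 in the progeroid livers, against 5.20, 4.74, 6.24, 5.60 and 4.74 in the wild type livers. The groups overlapped through animal 423, and the rise was 2.35-fold (adjusted p = 0.00335). Eda2r, a receptor of the TNF receptor family, was 2.72-fold higher (adjusted p = 0.00162). Mdm2, the ubiquitin ligase that limits p53, had a log2 difference of 0.13 ± 0.097 SE and did not pass (adjusted p = 0.41).

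Among 29 measured genes of nucleotide excision and crosslink repair, 7 rose (24.1%, against 11.4% of all genes) and 3 fell (10.3%, against 4.96%), with a median of 0.06, and Ercc1 itself is 1 of the 3. Ercc3, the XPB helicase of TFIIH, had 8.12, 7.68, 7.72, 7.62 and 7.62 in the progeroid livers, against 7.05, 6.99, 6.80, 6.94 and 6.81 in the wild type livers. All progeroid livers were above all wild type livers (1.78-fold higher, adjusted p = 8.19e-06). Lig1, the replicative DNA ligase, was higher by 0.58 on the log2 scale (adjusted p = 0.0136). Rpa1, which coats single-stranded DNA, had a log2 difference of 0.32 (adjusted p = 0.0135). Ercc4, the partner of ERCC1, had a log2 difference of -0.03 (adjusted p = 0.89). Leaving out single animals gave 4 to 7 rises and 1 to 3 falls.

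Cell cycle genes moved in part. Of 29 measured genes of the cell cycle and replication, 10 rose (34.5%, against 11.4% of all genes) and 1 fell (3.45%, against 4.96%), with a median of 0.23. Rises numbered 9 without animal 362, 11 without animal 421 and 8 without probe sets that may match several transcripts. Ccnd1, cyclin D1, which drives entry into the cycle, had 8.71, 9.12, 9.79, 10.11 and 9.81 in the progeroid livers, against 8.65, 7.35, 6.17, 7.08 and 7.35 in the wild type livers. Wild type animal 421 reached within 0.1 of the lowest progeroid liver, animal 362 (4.56-fold higher, adjusted p = 0.000112). Mcm6, a subunit of the replicative helicase, had 7.04, 6.78, 7.03, 6.85 and 6.62 in the progeroid livers, against 5.42, 5.22, 5.55, 5.32 and 5.16 in the wild type livers. It was 2.89-fold higher and apart (adjusted p = 3.58e-06). Ccne2, cyclin E2, was 2.96-fold higher (adjusted p = 0.000221) and Cdk1, the mitotic kinase, was 2.32-fold higher (adjusted p = 0.000939). Rrm2, a subunit of ribonucleotide reductase, went the other way, at 5.32 to 5.97 in the progeroid livers and 6.32 to 7.42 in the wild type livers (2.27-fold lower, adjusted p = 0.002). The proliferation markers Mki67 and Top2a had log2 differences of 0.47 (adjusted p = 0.161) and 0.04 (adjusted p = 0.825).

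Of 17 measured senescence and secreted factors, 7 rose (41.2%, against 11.4% of all genes) and 1 fell (5.88%, against 4.96%), with a median of 0.16. Cxcl1, a chemokine for neutrophils, was 3.75-fold higher (adjusted p = 0.00772), Mmp12, a macrophage elastase, 2.40-fold (adjusted p = 0.000463) and Cxcl10, a chemokine induced by interferon, 1.96-fold (adjusted p = 0.00011). Cdkn2a, which encodes p16 and Arf, was at 2.89 to 3.09 in the progeroid livers and 2.98 to 3.17 in the wild type livers and did not pass. Among 11 genes of fetal liver and imprinted growth 4 rose (36.4%) and none fell (median 0.17). Apart from Afp these were Plagl1, an imprinted zinc finger factor (1.85-fold higher, adjusted p = 0.00276), Ndn (0.45 on the log2 scale) and Igf2bp3 (0.28). The other probe set of Plagl1 had a log2 difference of 0.14 (adjusted p = 0.301). The fetal growth factor Igf2 had a log2 difference of 0.08 (adjusted p = 0.693). Without each animal in turn the fetal count lay between 2 and 4.

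Interferon response genes had the highest share of rises among the 45 gene lists. Interferons are released on viral infection or when nucleic acids appear in the cytosol, and they turn on antiviral genes, many of which carry an interferon-stimulated response element in their promoters. Of 27 measured members 23 rose (85.2%, against 11.4% of all genes) and none fell. Between groups 19 members were apart upwards, as were 7.95% of all genes. The median log2 difference of the 27 members was 0.75. The promoters of members that rose are shown because several hold this element, searched on both strands as TTTC, any 2 bases (NN) and TTTC, with overlapping matches allowed. Of the 15 of 23 members with a promoter in the RefSeq table (GRCm38.p6, from 250 bases before to 50 after the gene's start), 7 held a match, against 3.44% of 32851 promoters in the table. A match is a description of the letters only. The 250 bases before the start of 4 of them read as follows, 5' to 3' on the strand of the gene, with matches in capitals:

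Ifit1, chr19:34640639-34640888, plus strand: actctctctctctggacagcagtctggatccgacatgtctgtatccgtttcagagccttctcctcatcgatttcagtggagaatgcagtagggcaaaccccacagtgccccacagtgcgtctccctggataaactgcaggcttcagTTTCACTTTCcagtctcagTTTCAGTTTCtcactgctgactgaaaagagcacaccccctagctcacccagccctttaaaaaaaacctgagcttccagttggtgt

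Ifit3, chr19:34583279-34583528, plus strand: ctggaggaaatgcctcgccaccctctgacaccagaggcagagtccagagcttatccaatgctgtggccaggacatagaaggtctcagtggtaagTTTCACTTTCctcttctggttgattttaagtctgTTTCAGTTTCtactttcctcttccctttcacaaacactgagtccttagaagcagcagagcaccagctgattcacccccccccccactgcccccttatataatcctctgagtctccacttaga

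Oas1g, chr5:120887614-120887863, minus strand: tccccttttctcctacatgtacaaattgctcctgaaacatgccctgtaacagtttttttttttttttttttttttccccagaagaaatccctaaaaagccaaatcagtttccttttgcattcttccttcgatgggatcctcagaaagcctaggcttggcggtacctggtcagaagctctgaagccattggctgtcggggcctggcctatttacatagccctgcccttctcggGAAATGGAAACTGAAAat

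Rsad2, chr12:26456453-26456702, minus strand: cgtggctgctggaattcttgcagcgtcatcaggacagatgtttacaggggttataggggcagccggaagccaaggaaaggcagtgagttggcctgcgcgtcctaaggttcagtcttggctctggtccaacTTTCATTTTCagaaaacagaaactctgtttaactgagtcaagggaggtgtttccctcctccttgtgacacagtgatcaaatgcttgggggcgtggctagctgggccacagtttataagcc

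Ifit1 holds 2 matches, which begin 104 and 85 bases before the start, and Ifit3 holds 2, which begin 156 and 122 bases before it. In Oas1g the 2 matches overlap and begin 18 and 12 bases before the start, and the match in Rsad2 begins 120 bases before it.

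Usp18, the protease that removes ISG15 from proteins and dampens interferon signalling, had 8.33, 9.38, 9.38, 9.10 and 8.85 in the progeroid livers, against 6.34, 7.10, 5.49, 6.03 and 5.52 in the wild type livers. All progeroid livers were above all wild type livers (7.51-fold higher, log2 difference 2.91 ± 0.28 SE, adjusted p = 6.46e-07). Rsad2, viperin, which blocks viral replication, had 7.25, 7.94, 7.52, 7.94 and 7.82 in the progeroid livers, against 5.85, 5.33, 5.13, 5.86 and 5.91 in the wild type livers. This was a 4.21-fold rise (adjusted p = 4.76e-07), with the groups apart. Ifit1, which binds foreign RNA caps, had 6.19, 7.32, 7.35, 7.29 and 7.26 in the progeroid livers, against 5.43, 5.61, 3.90, 5.05 and 5.32 in the wild type livers. Animal 362 was lowest among the progeroid livers, and the rise was 4.05-fold (adjusted p = 0.000138). Oas1g, an oligoadenylate synthetase family gene, was 3.29-fold higher (adjusted p = 5.39e-07) and Irf7, a transcription factor of the pathway, was 2.88-fold higher (adjusted p = 2.37e-06). Zbp1, a sensor of left-handed nucleic acid, was 3.21-fold higher (adjusted p = 3.12e-05). Members that did not pass were Mx1 (0.19 on the log2 scale), Oas1b (0.08), Oas3 (-0.04) and Stat2 (-0.09). Leaving out single animals gave 19 to 23 rises, and 18 rose without probe sets that may match several transcripts. On the control diet 18 of the 27 rose, with a median of 0.59.

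Of 14 measured genes of antigen presentation, 4 rose (28.6%, against 11.4% of all genes) and none fell (median 0.38). Psmb9, an immunoproteasome subunit that interferon induces, had 8.26, 8.78, 8.88, 8.88 and 8.55 in the progeroid livers, against 8.08, 7.87, 7.28, 7.59 and 7.62 in the wild type livers. The groups were apart (1.98-fold higher, adjusted p = 8.44e-05). H2-K1, a class I heavy chain, had a log2 difference of -0.01 (adjusted p = 0.952). The count lay between 2 and 6 when single animals were left out.

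Markers of Kupffer cells, the resident macrophages of the liver, rose in the same livers. Of 14 measured markers 11 rose (78.6%, against 11.4% of all genes) and none fell, with a median of 0.64. The count was 10 without animal 362 and 10 without animal 421. The mean level of the list was 8.18 to 8.94 in the progeroid livers and 7.49 to 8.02 in the wild type livers. Clec4f, a lectin restricted to Kupffer cells in the mouse, had 8.90, 9.00, 9.70, 9.40 and 9.17 in the progeroid livers, against 8.43, 8.55, 8.43, 8.08 and 8.22 in the wild type livers. It was 1.85-fold higher with no overlap (adjusted p = 8.18e-05). Lyz2, a lysozyme, was higher by 0.63 on the log2 scale (adjusted p = 9.86e-05), Adgre1, a surface antigen of mouse macrophages, 1.57-fold (adjusted p = 0.00316) and Cd68, a lysosomal protein of macrophages, 2.29-fold (adjusted p = 0.00218). Marco, a scavenger receptor, stood at 5.63 to 7.08 in the progeroid livers and 3.95 to 6.58 in the wild type livers (2.3-fold higher, adjusted p = 0.0284), and Vsig4, a complement receptor, at 10.07 to 10.74 in the progeroid livers and 9.37 to 10.03 in the wild type livers (1.52-fold higher, adjusted p = 0.00237). Timd4, Csf1r and Cd163 did not pass, at 0.49, 0.28 and -0.36 on the log2 scale. In whole liver RNA, more or fewer cells of a type and more or less RNA per cell cannot be told apart. The part that Kupffer cell RNA had in the rise of the interferon genes was not tested.

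**Figure D2:**
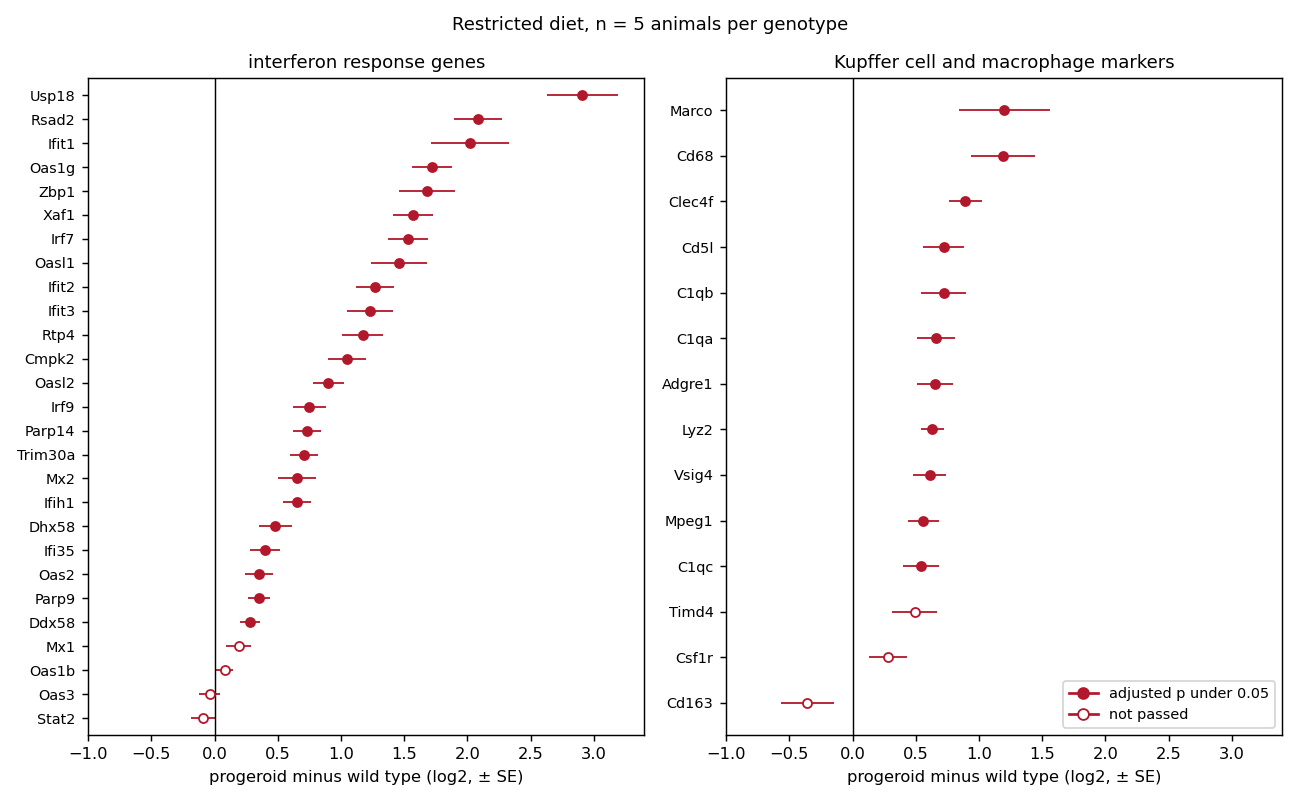
Log2 difference, progeroid minus wild type on the restricted diet (horizontal axis, ± SE, 5 animals per genotype), for the 27 interferon response genes (left) and the 14 Kupffer cell and macrophage markers (right). Filled points passed an adjusted p of 0.05; 23 of the 27 and 11 of the 14 did, each of them above 0.

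Other cell types gave fewer calls. Of 14 markers of stellate cells and fibrosis 4 rose (28.6%, against 11.4% of all genes) and none fell (median 0.17). Col3a1, a fibrillar collagen, had 8.78, 8.87, 9.44, 9.60 and 8.98 in the progeroid livers, against 8.96, 7.08, 7.40, 7.60 and 8.10 in the wild type livers. Wild type animal 421 lay inside the progeroid range, and the rise was 2.47-fold (adjusted p = 0.00368). Vim, vimentin, was 2.07-fold higher (adjusted p = 0.000408). Of 10 neutrophil and monocyte markers 3 rose (30.0%, median -0.01). S100a8 rose by 2.33-fold (adjusted p = 0.000127), S100a9 by 1.13 on the log2 scale and Ly6c1 by 0.60. The granule genes Elane, Mpo and Ltf had log2 differences of -0.01, -0.02 and -0.01 and did not pass. None of 13 lymphocyte markers, 3 erythroid markers and 4 adipocyte markers passed, with medians of 0.04, -0.15 and -0.06. Among 11 markers of sinusoidal endothelium 1 rose (9.09%, near the 11.4% of all genes), Pecam1 (0.38, adjusted p = 0.019). Among 6 of cholangiocytes 1 rose (16.7%), Tspan8 (2.99-fold, adjusted p = 2.01e-05). Krt19 was at 3.57 to 4.12 in the progeroid livers and 3.61 to 4.08 in the wild type livers. Of 7 pancreatic acinar genes 3 rose (42.9%). Amy2a5, pancreatic amylase, was at 4.31 to 5.64 in the progeroid livers and 2.65 to 2.82 in the wild type livers (4.31-fold higher, adjusted p = 0.000232). The elastase genes Cela1 and Cela2a also rose, by 0.80 (adjusted p = 0.00313) and 0.67 (adjusted p = 0.00625) on the log2 scale, with Cela1 at 8.48 to 9.63 in the progeroid livers and 8.07 to 8.90 in the wild type livers. The other 4, the digestive enzyme genes Cpa1, Prss2, Cel and Ctrb1, were at 2.98 to 4.02 in the progeroid livers and 3.23 to 3.98 in the wild type livers and did not pass. Among 10 general hepatocyte genes 2 fell by small amounts (20.0%, against 4.96% of all genes). They were Serpina1a (log2 difference -0.28) and the transcription factor Hnf4a (-0.27, adjusted p = 0.0175). Pericentral markers gave 1 rise and 1 fall of 9 (11.1% each), Lgr5 (1.84-fold higher) and Slc1a2 (log2 difference -0.64). The other probe sets of Lgr5 and Slc1a2 had 0.01 and 0.02. Periportal markers gave 1 rise and 1 fall of 8 (12.5% each), Cyp2f2 and Ctsc.

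Acute phase genes, which hepatocytes make on inflammatory signals, rose in part. Of 21 measured members 5 rose (23.8%, against 11.4% of all genes) and 2 fell (9.52%, against 4.96%), with a median of 0.16. Only 2 rose without probe sets that may match several transcripts. Saa1, serum amyloid A1, had 8.21, 9.30, 9.62, 9.61 and 9.47 in the progeroid livers, against 8.80, 6.26, 6.26, 6.02 and 7.62 in the wild type livers. The groups overlapped through animals 362 and 421 (4.77-fold higher, adjusted p = 0.000763). Saa2 showed the same pattern of animals, 5.66-fold higher (adjusted p = 0.00116), and these genes are near-identical copies whose probes may share transcripts. Lcn2, lipocalin 2, was 2.67-fold higher (adjusted p = 0.000638). Saa3 (1.82-fold higher, adjusted p = 0.00219) and Socs3, a brake on cytokine signalling (2.58-fold higher, adjusted p = 0.0394), were the other members that rose. Orm3, an orosomucoid, was 2.38-fold lower (adjusted p = 0.00154), and the coagulation genes Fga, Fgb and Fgg had log2 differences of 0.04 to 0.05.

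NRF2, a transcription factor released on oxidative and electrophilic stress, drives genes of glutathione synthesis and conjugation. Of 22 measured targets 10 rose (45.5%, against 11.4% of all genes) and 1 fell (4.55%, against 4.96%), with a median of 0.41. Rises numbered 12 without animal 362 and 11 without animal 421. Gsta2, a glutathione S-transferase, had 10.90, 11.14, 10.86, 11.38 and 11.36 in the progeroid livers, against 9.66, 9.58, 9.78, 9.82 and 10.15 in the wild type livers. It was 2.52-fold higher with no overlap (adjusted p = 0.000211). Srxn1, sulfiredoxin, had 8.20, 8.56, 8.54, 8.83 and 8.73 in the progeroid livers, against 7.63, 7.86, 7.12, 7.43 and 7.49 in the wild type livers. That was a 2.10-fold rise with the groups apart (adjusted p = 2.31e-05). Gstm3 was 2.12-fold higher (adjusted p = 0.000362), Nqo1, a quinone reductase, 1.84-fold (adjusted p = 0.000406) and Gclc, which makes the first step of glutathione synthesis, 1.55-fold (adjusted p = 0.00262). The target that fell was Me1, malic enzyme, which also belongs to fat synthesis. Other targets such as Txnrd1, Gsr and Slc7a11 had log2 differences of -0.02, -0.06 and 0.04. The antioxidant response element, searched as TGACNNNGC on both strands, was found in 2 of 7 promoters of the members that rose, against 12.4% of all promoters. Among 16 genes of peroxide, superoxide and metallothionein defence 2 rose, Gpx6 and Gpx1 (12.5%, near the 11.4% of all genes). Another 2 fell, Glrx and Msra (12.5%, against 4.96%). Msra, a methionine sulfoxide reductase, had a log2 difference of -0.51 (adjusted p = 3.12e-05).

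Genes of xenobiotic metabolism moved both ways, 5 of 30 higher (16.7%, against 11.4% of all genes) and 7 lower (23.3%, against 4.96%), with a median of 0.06. The higher genes numbered 7 without animal 362 and 6 without animal 421. Sult5a1, a sulfotransferase, was 2.93-fold lower (adjusted p = 0.000137), and Ces2a, a carboxylesterase, was 1.55-fold lower (adjusted p = 0.0181). The main drug-metabolising genes Cyp3a11, Cyp2e1 and Cyp1a2 had log2 differences of 0.02, 0.15 and 0.18 and did not pass, although Cyp2e1 passed under 4 of the alternatives (adjusted p = 0.0268 to 0.0494). The Cyp2b genes, which are also sex-biased, had the largest falls of this list.

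In mouse liver, pulses of growth hormone hold up the genes that males express more and hold down those of females. Eif2s3y, a Y-linked gene, was at 9.79 to 10.13 and Xist at 3.82 to 4.50 in the 10 restricted livers. Of 16 measured male-biased genes 8 rose in restricted progeroid livers and 1 fell, with a median of 0.48. Cyp4a12a, which hydroxylates arachidonic acid, had 5.92, 6.45, 5.56, 8.48 and 6.43 in the progeroid livers, against 3.80, 3.32, 3.54, 4.13 and 3.62 in the wild type livers. All progeroid livers were higher (7.39-fold, adjusted p = 3.19e-05), and on the control diet the group means were 10.68 in progeroid and 11.59 in wild type livers. Hsd3b5, a steroid-metabolising enzyme, had 4.51, 7.02, 6.59, 9.60 and 7.25 in the progeroid livers, against 4.86, 4.26, 3.70, 3.90 and 3.34 in the wild type livers. Animal 362 was inside the wild type range and animal 368 was the highest (7.91-fold higher, adjusted p = 0.000789). C6, a terminal complement component, had 8.47, 9.24, 8.96, 10.01 and 8.75 in the progeroid livers, against 6.39, 7.20, 6.86, 6.98 and 5.84 in the wild type livers. The rise was 5.40-fold with the groups apart (adjusted p = 3.58e-06). Elovl3, a fatty acid elongase, was 3.41-fold higher (adjusted p = 0.00104) and Nat8, an acetyltransferase, was 2.97-fold higher (adjusted p = 3.76e-06). Cyp2d9 (0.84 on the log2 scale, adjusted p = 0.00237), Slco1a1, an organic anion transporter (0.57, adjusted p = 0.0213), and Gstp1 (0.32, adjusted p = 0.031) rose by less. Serpina4-ps1, a serpin pseudogene, was the male-biased gene that fell (4.66-fold, adjusted p = 0.0036), a call that was lost without probe sets that may match several transcripts (log2 difference -1.38, adjusted p = 0.131).

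Female-biased genes moved the other way. Of 19 measured members 8 fell (42.1%, against 4.96% of all genes) and 2 rose (10.5%, against 11.4%), with a median of -0.73. Cyp2b13 had 3.92, 3.64, 5.72, 3.70 and 4.14 in the progeroid livers, against 9.33, 6.47, 7.67, 7.51 and 9.81 in the wild type livers. It was 15.3-fold lower and apart (adjusted p = 8.74e-06), with a control diet mean of 3.45 in progeroid and 3.64 in wild type livers. Cyp2b9 had 10.73, 8.28, 10.81, 8.15 and 9.71 in the progeroid livers, against 11.84, 11.55, 12.04, 11.77 and 11.83 in the wild type livers. The fall was 4.82-fold with the groups apart (adjusted p = 0.0125). Slc22a26, an organic anion transporter, was 5.44-fold lower (adjusted p = 0.00014), Cux2, a homeobox factor that promotes female-biased expression, 3.85-fold (adjusted p = 0.00273) and Hamp2, a hepcidin, 3.32-fold (adjusted p = 6.13e-05), although Hamp2 did not pass without probe sets that may match several transcripts (log2 difference -0.19, adjusted p = 0.0996). Sult3a1, a sulfotransferase, was 4.48-fold lower (adjusted p = 0.0123), at 3.86 to 7.81 in the progeroid livers and 6.41 to 9.50 in the wild type livers. Cyp2b9, Cyp2b10 and Cyp2b13 are close paralogs, so their probes may share transcripts. The 2 female-biased genes that rose were Cyp3a41a (1.94-fold, adjusted p = 0.00907) and Prom1 (1.74-fold, adjusted p = 0.0209).

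The mean level of the male-biased list was 7.68 to 8.75 in restricted progeroid livers and 7.21 to 7.58 in restricted wild type livers, and on the control diet 9.58 to 10.27 in progeroid and 10.06 to 10.49 in wild type livers. That of the female-biased list was 6.40 to 7.58 in restricted progeroid livers and 7.97 to 8.87 in restricted wild type livers, and on the control diet 5.22 to 5.67 in progeroid and 5.56 to 6.04 in wild type livers. For both lists the restricted progeroid livers thus lay between the restricted wild type livers and the livers of the control diet. Genotype effects on the 2 diets differed by a test of the difference itself for 5 male-biased genes, all more positive on the restricted diet, and for 4 female-biased genes, all more negative. Among these, Cyp2b13 on the control diet and Cyp4a12a and Hsd3b5 in restricted wild type livers lay near the floor of the scale. Differences are understated there, so the size of these differences between diets is uncertain. Leaving out 1 animal ended at least once the difference calls of Hsd3b5, Elovl3, Cyp17a1 and Slc22a26. That of Hamp2 was lost without probe sets that may match several transcripts (-0.19, adjusted p = 0.45). Among 15 genes listed for the growth hormone and IGF1 axis 1 rose (6.67%, against 11.4% of all genes) and 4 fell (26.7%, against 4.96%), with a median of -0.05. Igfbp3 rose, and Ghr, Thrsp, Thrb and Dio1 fell. Of the falls only Ghr is itself a growth hormone or IGF1 gene, and Thrsp is also counted under fatty acid synthesis. Leaving out 1 animal ended at least once the calls of Igfbp3 and Dio1. Ghr, the growth hormone receptor, was 1.23-fold lower (adjusted p = 0.00685), Igf1 had a log2 difference of -0.12 ± 0.063 SE (adjusted p = 0.242), and the feedback genes Socs2 and Bcl6 had 0.35 and 0.37 and did not pass.

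**Figure D3:**
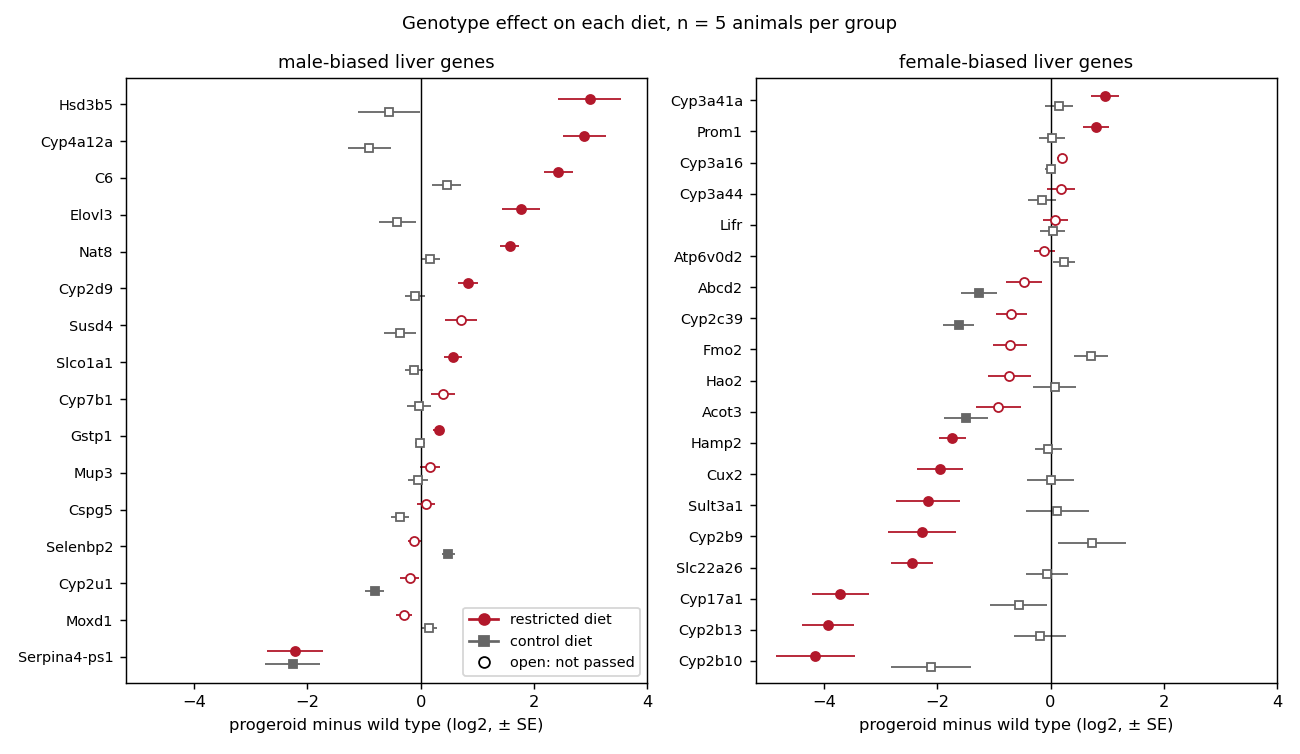
Log2 difference, progeroid minus wild type (horizontal axis, ± SE, 5 animals per group), for 16 male-biased (left) and 19 female-biased (right) liver genes. Circles are the restricted diet and squares the control diet, and filled symbols passed an adjusted p of 0.05; on the restricted diet 8 male-biased genes rose and 8 female-biased genes fell.

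Genes that turn carbohydrate into fat were lower. Fatty acid synthesis in liver runs from citrate through ATP citrate lyase, acetyl-CoA carboxylase and fatty acid synthase, and insulin and feeding induce its genes through SREBP1c (Srebf1) and ChREBP (Mlxipl). Of 22 measured members 14 fell (63.6%, against 4.96% of all genes) and none rose, with a median of -0.96. The mean level of the list was 9.75 to 10.72 in the progeroid livers and 10.83 to 11.22 in the wild type livers. Pnpla3, a lipid hydrolase of the lipogenic program, had 6.07, 3.88, 3.97, 4.10 and 4.02 in the progeroid livers, against 8.46, 6.93, 7.13, 8.18 and 9.54 in the wild type livers. It was 12.5-fold lower with animal 362 the highest progeroid liver (adjusted p = 0.00111). Acacb, the acetyl-CoA carboxylase of mitochondria, had 8.63, 6.63, 6.03, 5.53 and 6.67 in the progeroid livers, against 9.63, 9.10, 9.64, 9.26 and 9.24 in the wild type livers. The fall was 6.39-fold, and the groups did not overlap (adjusted p = 0.000978). The other probe set of Acacb had a log2 difference of -0.02 (adjusted p = 0.906). Thrsp, Spot 14, a regulator of lipogenesis, had 12.21, 11.16, 11.18, 10.84 and 12.10 in the progeroid livers, against 13.39, 13.18, 12.99, 13.36 and 13.37 in the wild type livers. It was 3.38-fold lower and apart (adjusted p = 0.00451). Pnpla5, a lipase related to Pnpla3 that is not in the list, stood at 3.78 to 5.22 in the progeroid livers and 5.46 to 6.60 in the wild type livers (3.4-fold lower, adjusted p = 0.000719).

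Among the enzymes of the central route, animal 362 lay nearer to the wild type livers than the other progeroid livers did for Acly and Fasn. Acly, ATP citrate lyase, had 12.11, 10.60, 9.97, 10.29 and 10.58 in the progeroid livers, against 12.03, 12.07, 12.52, 12.49 and 11.86 in the wild type livers. Animal 362 was within the wild type range and the other 4 progeroid livers were more than 1 log2 unit below it (2.80-fold lower, adjusted p = 0.00759). Fasn, fatty acid synthase, had 11.77, 10.28, 9.39, 9.97 and 10.77 in the progeroid livers, against 12.35, 11.64, 11.84, 12.40 and 12.37 in the wild type livers. Again only animal 362 reached the wild type range (3.22-fold lower, adjusted p = 0.0208), and the call for Fasn was lost without animal 366 or 368 (adjusted p = 0.0686 and 0.0576). Me1, which supplies NADPH, was 2.85-fold lower (adjusted p = 0.00133), Pklr, liver pyruvate kinase, 2.63-fold (adjusted p = 0.000747), Acaca 2.57-fold (adjusted p = 0.00371) and Mlxipl 1.47-fold (adjusted p = 0.00627). Elovl6, which lengthens palmitate, was 2.56-fold lower (adjusted p = 0.0254), Pgd, of the pentose phosphate pathway, 2.31-fold lower (adjusted p = 0.00274), and Tkfc, of fructose metabolism, 2.07-fold lower (adjusted p = 0.00308). Scd1, stearoyl-CoA desaturase, had a log2 difference of -0.33 (adjusted p = 0.245) on its brightest probe set and passed when its 2 probe sets were averaged (-1.13, adjusted p = 0.0213), and the desaturases Fads1 and Fads2 had 0.03 and 0.39 and did not pass. Without animal 362 the count of falls was 14, and without wild type animal 421 it was 12. On the control diet 5 members fell, with a median of -0.21, and no member passed the test of the difference between diets. The E-box CACGTG was found in 1 of 13 promoters of the members that fell (Mlxipl), against 7.15% of all promoters.

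**Figure D4:**
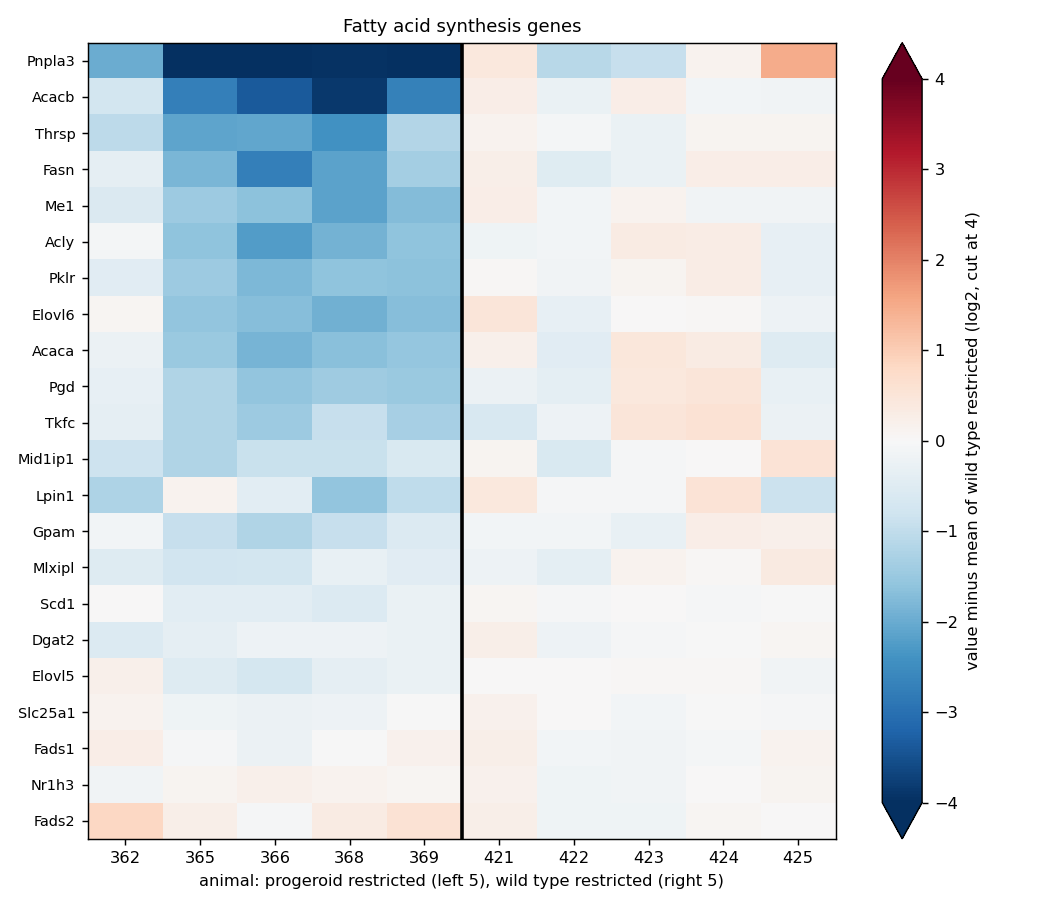
Value of each restricted animal minus the mean of the 5 wild type restricted livers (log2, colour scale from -4 to 4, values beyond it drawn at its ends) for the 22 measured fatty acid synthesis genes, progeroid livers left of the line and wild type livers right of it. Acly stood at 12.11 in animal 362, 9.97 to 10.60 in the other 4 progeroid livers and 11.86 to 12.52 in the wild type livers.

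Cholesterol synthesis gave 1 fall among 18 measured genes (5.56%, near the 4.96% of all genes), with a median of -0.45. The gene was Fdps (2.75-fold lower, adjusted p = 0.0301). Of the 18 members 17 had a negative difference, but the progeroid livers spread widely, as for Fdps at 8.30 to 10.85 in the progeroid livers and 10.84 to 11.21 in the wild type livers. The count was 3 without animal 362 and 0 without wild type animal 421.

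Genes of fat burning and fat uptake were higher in part. Of 27 measured genes of fatty acid oxidation and PPARalpha targets 7 rose (25.9%, against 11.4% of all genes) and none fell (median 0.12). Cpt1a, which admits fatty acids to mitochondria, had 11.92, 11.91, 11.89, 12.04 and 11.92 in the progeroid livers, against 11.34, 11.37, 11.27, 11.32 and 11.03 in the wild type livers. The groups were apart (1.59-fold higher, adjusted p = 0.00199). Cpt2, the inner membrane partner of Cpt1a, was 1.44-fold higher (adjusted p = 0.0003) and Creb3l3, a membrane-bound factor of fasting metabolism, was 1.79-fold higher (adjusted p = 4.85e-05). Ppara itself had a log2 difference of 0.45 (adjusted p = 0.0202). Classical PPARalpha targets such as Cyp4a10, Pdk4, Fgf21 and Angptl4 had log2 differences of 0.12, 0.16, 0.12 and 0.51 and did not pass. For 7 members the genotype effect was more positive on the restricted than on the control diet. They include Acot1 and Acot2, acyl-CoA thioesterases with differences of -0.05 and -0.18 on the restricted diet and -1.81 and -1.74 on the control diet. For Acot2 the difference between diets was 1.55, and it was 0.35 (adjusted p = 0.543) without probe sets that may match several transcripts.

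Among 18 genes of fat uptake and lipid droplets 6 rose (33.3%, against 11.4% of all genes) and 3 fell (16.7%, against 4.96%), with a median of 0.11. Lpl, lipoprotein lipase, had 9.70, 9.39, 9.81, 9.80 and 10.14 in the progeroid livers, against 7.38, 7.70, 7.77, 7.32 and 7.39 in the wild type livers. All progeroid livers were higher (4.78-fold, adjusted p = 7.57e-08). Cd36, a fatty acid translocase, had 10.12, 9.80, 10.19, 9.86 and 9.98 in the progeroid livers, against 8.79, 8.17, 8.50, 8.33 and 9.17 in the wild type livers. It was 2.64-fold higher and apart (adjusted p = 5.94e-05). Plin2, which coats lipid droplets, was 1.90-fold higher (adjusted p = 0.000956) and Pparg, a nuclear receptor of fat storage, 1.93-fold (adjusted p = 0.0021). Fabp5, a fatty acid binding protein, fell by 4.09-fold with animal 362 in the wild type range (adjusted p = 0.00215), next to Vldlr and Plin5 (log2 difference -0.62).

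Of 17 genes of gluconeogenesis and glycogen 6 fell (35.3%, against 4.96% of all genes) and 1 rose (5.88%, against 11.4%), with a median of -0.13. Gbe1, the glycogen branching enzyme, had 9.87, 9.62, 9.67, 9.59 and 9.65 in the progeroid livers, against 10.55, 10.55, 10.68, 10.44 and 10.44 in the wild type livers. It was 1.81-fold lower with no overlap (adjusted p = 3.95e-05). Ppp1r3b, which targets a phosphatase to glycogen, was 2.28-fold lower (adjusted p = 0.00473), and Gys2, liver glycogen synthase, was the member that rose (1.40-fold, adjusted p = 0.0365). Pck1 and G6pc, which encode key steps of glucose output, had log2 differences of -0.40 (adjusted p = 0.0848) and 0.21 (adjusted p = 0.726). Among 17 genes of insulin and FOXO signalling 2 rose (11.8%) and 1 fell (5.88%), near the shares of 11.4% and 4.96% over all genes (median 0.16). Trib3, an inhibitor of Akt, had 7.65, 7.81, 7.86, 8.32 and 7.76 in the progeroid livers, against 6.71, 6.57, 6.66, 5.17 and 5.45 in the wild type livers. This was a 3.41-fold rise with the groups apart (adjusted p = 0.000199). Sesn3 was 1.74-fold higher (adjusted p = 0.000634) and Pik3r1 had a log2 difference of -0.42.

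Of 24 genes that break down amino acids or run the urea cycle 4 fell (16.7%, against 4.96% of all genes) and none rose (median -0.01). Those that fell were Asl, argininosuccinate lyase (log2 difference -0.47, adjusted p = 0.00354), Tat (-0.47), Prodh (-0.44, adjusted p = 0.0113) and Nags (-0.28). Cps1 and Otc had -0.01 and 0.08. Among 23 genes of bile acid synthesis and transport 8 rose (34.8%, against 11.4% of all genes) and 1 fell (4.35%, against 4.96%), with a median of 0.30. Rises numbered 10 without animal 362 and 10 without animal 421. Abcg5, a subunit of the sterol exporter, had 11.53, 11.60, 11.80, 11.88 and 11.85 in the progeroid livers, against 10.85, 10.82, 10.79, 10.43 and 10.74 in the wild type livers. It was 2.01-fold higher and apart (adjusted p = 7.01e-05). Its partner Abcg8 was higher by 0.62 on the log2 scale (adjusted p = 0.0173), Abcb4, which exports phospholipid into bile, 1.81-fold (adjusted p = 0.00163) and Amacr, a racemase of bile acid precursors, 1.55-fold (adjusted p = 1.44e-05). Slc10a1, the main bile acid importer, was the member that fell (1.33-fold, adjusted p = 0.000177). Cyp7a1, the rate-limiting enzyme of bile acid synthesis, had a log2 difference of -0.58 (adjusted p = 0.468).

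Chaperones of the endoplasmic reticulum were lower in part. Of 28 genes of the endoplasmic reticulum and integrated stress response 6 fell (21.4%, against 4.96% of all genes) and 2 rose (7.14%, against 11.4%). Their median was -0.18. Hyou1, a chaperone, had 7.70, 7.34, 7.14, 7.37 and 7.25 in the progeroid livers, against 7.96, 7.86, 8.77, 8.54 and 8.09 in the wild type livers. All progeroid livers were lower (1.84-fold, adjusted p = 0.00063). Manf and Edem1, which help to handle unfolded proteins, had log2 differences of -0.92 (adjusted p = 0.0101) and -0.59 (adjusted p = 0.000158), and the transcription factor Atf4 was 1.38-fold lower (adjusted p = 0.0163). The central chaperone Hspa5 had -0.33 on the log2 scale (adjusted p = 0.0905). Of 14 heat shock genes 1 rose (7.14%, against 11.4% of all genes) and 1 fell (7.14%, against 4.96%). Hspb1, a small heat shock protein, rose 3.21-fold (adjusted p = 7.18e-05). Its other probe sets had log2 differences of 1.66, 0.02 and -0.02. The gene that fell was Cryab (-0.39), whose difference turned to 0.13 when all its probe sets were averaged. Of 18 genes of autophagy and lysosome 4 fell (22.2%, against 4.96% of all genes) and 2 rose (11.1%, near the 11.4% of all genes). Their median was -0.06. Uvrag and Atg7 were both 1.40-fold lower (adjusted p = 0.00116 and 0.00211).

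Few clock genes passed. Of 15 genes of the core circadian clock 1 rose (6.67%, against 11.4% of all genes) and 2 fell (13.3%, against 4.96%), with a median of -0.15. Falls numbered 3 without animal 362 and 1 without animal 421. The mean level of this list was 7.54 to 7.73 in the progeroid livers and 7.75 to 7.87 in the wild type livers. Cry1, a repressor of the clock, had 7.02, 6.98, 7.34, 6.63 and 6.98 in the progeroid livers, against 7.58, 7.56, 8.37, 8.79 and 8.43 in the wild type livers. It was 2.23-fold lower and apart (adjusted p = 0.00684). Per1, Per2 and Arntl had log2 differences of -0.07, -0.56 and -0.51 and did not pass. Of 16 clock output genes 2 rose (12.5%, near the 11.4% of all genes) and 2 fell (12.5%, against 4.96%), with a median of -0.03. Cdkn1a and Gys2 rose and Tfrc and Leap2 fell, and Cdkn1a, Gys2 and Tfrc are also counted in other lists. The D-box factor Dbp had 0.29 (adjusted p = 0.741). Of 21 immediate early genes 1 rose (4.76%, against 11.4% of all genes), Btg2 (2.43-fold, adjusted p = 0.00727). Another 1 fell (4.76%, near the 4.96% of all genes), Gadd45b (-0.66). Of 16 genes of iron and heme 1 rose (6.25%, against 11.4% of all genes) and 2 fell (12.5%, against 4.96%). Id1, a target of BMP signals, was 3.83-fold higher (adjusted p = 0.00174). The falls were Hamp2 and Tfrc, the transferrin receptor (2.38-fold, adjusted p = 0.00371). Other probe sets of Tfrc had log2 differences of -0.22 and -0.45. Hamp had -0.13 and did not pass. Of 14 genes of sirtuins and NAD 3 rose (21.4%, against 11.4% of all genes) and 2 fell (14.3%, against 4.96%). Among them were Aox1 (0.52), Sirt5 (0.28) and Nnmt (-0.78).

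Housekeeping machinery moved little. Of 30 genes of oxidative phosphorylation 1 fell, Ndufb8 (-0.29, adjusted p = 0.00299), with a median of -0.07, and none of 28 ribosomal protein genes (median -0.06) or 24 proteasome genes (median -0.01) passed. With arrays centred on their medians, 6, 3 and 1 of these genes fell.

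**Figure D5:**
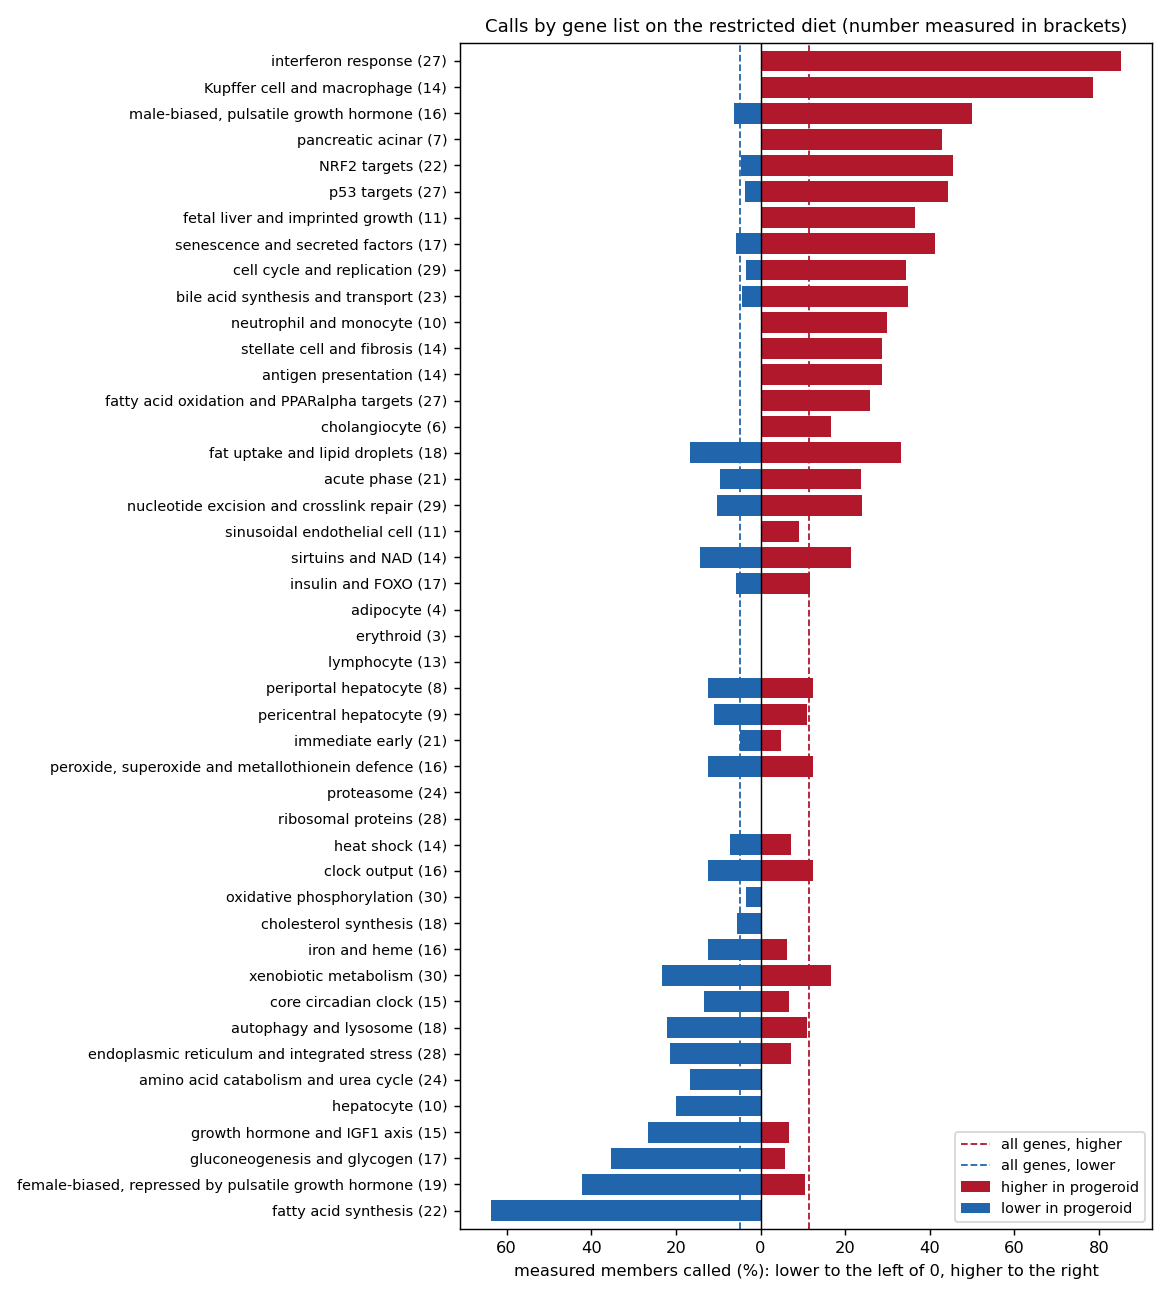
Percentage of the measured members of each gene list that rose (red, right of 0) or fell (blue, left of 0) in restricted progeroid livers against restricted wild type livers at an adjusted p of 0.05, with the number measured in brackets. Dashed lines mark the shares over all genes, 11.4% higher and 4.96% lower; interferon response and fatty acid synthesis stand at the ends.

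The same contrast on the control diet, which shares no array with the restricted one, called 1081 genes higher (6.32%) and 695 lower (4.07%). Genes higher on both diets numbered 660, 34.0% of the restricted and 61.1% of the control calls, and genes lower on both numbered 250, 29.5% of the restricted and 36.0% of the control calls. Across the 17097 genes the 2 genotype effects correlated at r = 0.58, as a description, since genes are not independent replicates. Some of the largest rises were alike on both diets: Afp had log2 differences of 3.84 on the restricted and 4.23 on the control diet, Tff3 2.41 and 2.50, and Cib3 2.44 and 2.59.

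A test of the difference of the 2 genotype effects passed for 143 genes that were more positive on the restricted diet (0.836%) and 52 that were more negative (0.304%). Of the 143, 92 were called on the restricted diet alone, 28 on the control diet alone, 22 on both and 1 on neither. Among the most positive, besides the male-biased genes, were Spc25 (difference 2.40, adjusted p = 0.000238; 0.03 on the control diet), Gpx6 (1.97, adjusted p = 0.00725; 1.35 on the control diet) and Fitm1, which promotes lipid droplet formation. Fitm1 had 8.11, 7.82, 7.95, 8.07 and 7.85 in the restricted progeroid livers, against 6.51, 6.39, 5.96, 6.45 and 5.69 in the restricted wild type livers. The groups were apart on the restricted diet (3.38-fold higher), and on the control diet the means were 8.29 in progeroid and 8.45 in wild type livers (difference of effects 1.92, adjusted p = 0.000852). Mfsd2a, a lipid transporter, had a log2 difference of -0.52 on the restricted and -3.12 on the control diet (difference 2.61, adjusted p = 0.0314).

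Among the more negative were genes that were higher in progeroid livers on the control diet. Sult1e1, estrogen sulfotransferase, had 10.55, 9.78, 10.17, 7.96 and 8.83 in the restricted progeroid livers, against 8.56, 11.00, 10.67, 9.34 and 10.66 in the restricted wild type livers. These overlapped (log2 difference -0.59), whereas the control diet means were 7.69 in progeroid and 4.44 in wild type livers (difference of effects -3.84, adjusted p = 0.0148). Pls1, plastin 1, was 3.31-fold higher on the restricted diet (adjusted p = 2.23e-05) and higher by 3.42 on the log2 scale on the control diet (difference -1.69, adjusted p = 0.0133). Slc16a5, a monocarboxylate transporter, had 0.39 on the restricted and 2.38 on the control diet (difference -2.0, adjusted p = 0.0148). In 13 genes the calls were opposite, 10 of them higher on the restricted and lower on the control diet. Arsa, arylsulfatase A, had the largest such difference, 0.96 on the restricted and -0.70 on the control diet (adjusted p = 9.15e-05).

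The counts for the difference between diets depended on single animals. Without wild type animal 421 they were 343 more positive and 118 more negative, without progeroid animal 362 they were 245 and 89, and without any one of the other 8 animals 63 to 119 and 22 to 44.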

How the data were processed

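Liver RNA of 20 mice was measured on Affymetrix arrays. The values are log2 intensities that the authors deposited after RMA, per the submitters' processing notes. The array definition and any scan batches are not used here, since no label gives them. Of 45141 probe sets, 28898 carried 1 gene symbol, and each of 17097 genes was represented by its brightest probe set. limma 3.58.1 (R 4.3.3) fitted 4 group means over the 20 arrays, and p-values were adjusted by Benjamini-Hochberg over the 28898 probe sets (threshold 0.05). The 20 arrays share 1 estimate of spread. Each array is a separately numbered animal. The fit was tested on simulated data. The members and the 45 gene lists were chosen with earlier results of these data known. Some genes belong to several lists, so list counts are not independent. Named genes are Ercc1, the 15 largest rises and falls whose groups do not overlap, the 8 largest differences between diets of each sign and the 3 list members with the smallest adjusted p, without provisional symbols. Further list members, and Arsa, were named after their values were seen. Promoters come from RefSeq's GRCm38.p6 table. Alternatives changed the scaling, array weights, probe set rule, filter, moderation and animals.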

Additional observations from a re-analysis of the deposited data

Results flagged for a closer look

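In groups of 5 animals, a value was singled out where its gap to the nearest other animal exceeded 0.71 of the group's range. Of 540 sets of 5 values tested, 37 held such a value, and chance singles out about 1 in 20 groups. Animal 362 accounted for 11 of them and animal 421 for 4. Progeroid animal 362 lay above the rest of its group for Pnpla3 at 6.07, Pnpla5 at 5.22, Ercc3 at 8.12, Pklr at 10.04, Acaca at 9.38, Elovl6 at 11.31 and Pdk4 at 7.23. Progeroid animal 362 lay below the rest of its group for Hamp2 at 10.40, Saa1 at 8.21, Ccne2 at 4.42 and Ifit1 at 6.19. Progeroid animal 365 lay below the rest of its group for Spc25 at 7.25. Progeroid animal 366 lay above the rest of its group for Cyp2b13 at 5.72, Orm3 at 5.27 and Vsig4 at 10.74. Progeroid animal 366 lay below the rest of its group for Btg2 at 8.65 and Ercc4 at 5.33. Progeroid animal 368 lay above the rest of its group for Afp at 8.69, Alas2 at 6.61 and Cpt1a at 12.04. Progeroid animal 369 lay above the rest of its group for Elane at 3.93. Wild type animal 421 lay above the rest of its group for Blnk at 5.49 and Vim at 8.94. Wild type animal 421 lay below the rest of its group for Fabp4 at 8.64 and Top2a at 3.82. Wild type animal 422 lay above the rest of its group for Btg2 at 8.71. Wild type animal 422 lay below the rest of its group for Epcam at 3.93. Wild type animal 423 lay below the rest of its group for Sult3a1 at 6.41. Wild type animal 424 lay below the rest of its group for Prodh at 11.25, Abcg5 at 10.43, Cux2 at 7.61, Apoa1 at 13.72 and Aox1 at 8.93. Wild type animal 425 lay above the rest of its group for Cyp3a41a at 6.94 and Cyp3a11 at 13.94. Wild type animal 425 lay below the rest of its group for Cpt1a at 11.03 and Angptl4 at 8.88.

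For 32 named genes the genotype effect differed between diets by the test of the difference itself (limma, log2, restricted minus control). The effect was more positive on the restricted diet for Gpx6 (1.97, adjusted p = 0.00725), Olig1 (1.68, adjusted p = 0.0273), Cyp4a12a (3.80, adjusted p = 0.00259), Gal3st1 (1.58, adjusted p = 0.00508), Spc25 (2.40, adjusted p = 0.000238) and C6 (1.97, adjusted p = 0.0161). The same held for Hsd3b5 (3.55, adjusted p = 0.0302), Mfsd2a (2.61, adjusted p = 0.0314), Elovl3 (2.18, adjusted p = 0.0301), Fitm1 (1.92, adjusted p = 0.000852), Rsad2 (1.13, adjusted p = 0.0479) and Nat8 (1.40, adjusted p = 0.0101). The same held for Creb3l3 (1.09, adjusted p = 0.00488), Cpt2 (0.56, adjusted p = 0.0302), Amacr (0.70, adjusted p = 0.00655), Cyp2f2 (0.73, adjusted p = 0.0269), Plin2 (1.16, adjusted p = 0.0269) and Acot1 (1.76, adjusted p = 0.0269). The same held for Acot2 (1.55, adjusted p = 0.0301; 0.35, adjusted p = 0.543, without probe sets that may match several transcripts), Cyp2c29 (0.88, adjusted p = 0.0313), Cyp2c55 (1.63, adjusted p = 0.0288) and Arsa (1.65, adjusted p = 9.15e-05). The effect was more negative on the restricted diet for Cyp2b13 (-3.75, adjusted p = 0.0101), Cyp17a1 (-3.15, adjusted p = 0.0326), Slc22a26 (-2.38, adjusted p = 0.0322), Hamp2 (-1.69, adjusted p = 0.0224), Sult1e1 (-3.84, adjusted p = 0.0148) and Slc16a5 (-2.0, adjusted p = 0.0148). The same held for Smoc2 (-1.84, adjusted p = 0.0433), Tfrc (-1.76, adjusted p = 0.0329), Pls1 (-1.69, adjusted p = 0.0133) and Lcn2 (-1.50, adjusted p = 0.0479).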

How the results depend on the processing

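The fit was repeated under 19 other settings, 10 of which left out 1 animal each. With arrays centred on their medians, 1546 genes fell, against 848 on the deposited scale. Leaving out single animals gave 1556 to 2092 genes higher and 588 to 935 lower, and for the difference between diets 63 to 343 more positive and 22 to 118 more negative. More negative genes numbered 84 with array weights and 84 with probe sets averaging at least 5, against 52. Of 122 called genes named by rule, 102 kept their call under all settings that gave a value. The sign turned for Ercc1 (0.02), Slc1a2 (0.02) and Otc (-0.35, adjusted p = 0.0237, against 0.08) without probe sets that may match several transcripts, where another probe set stands for the gene, and for Cryab (0.13) with probe sets averaged. The cause of other changes was not tested. Some called genes also had a probe set that did not pass, as Afp (-0.15), Osbpl3 (-0.04), Psmb9 (-0.05) and Srxn1 (0.11). Of 1357 called genes with several probe sets, 11 had a probe set called in the opposite direction. The wild type mice were littermates, but the labels name no litter or pairing, so no paired analysis was possible. Precision is limited by the 5 arrays a group. Differences of dim genes are understated, and 8315 genes averaged under 5 in restricted wild type livers. Diet amounts, litters and scan batches were not tested. On the restricted diet, leaving out 1 animal ended at least once the calls of Abcg8, Aox1, Atf4, Ces2a, Cryab, Cyp2c29, Cyp2c55, Elovl6, Fasn, Fdps, Gadd45b, Glrx, Gys2, Hnf4a, Igf2bp3, Lgr5, Marco, Nags, Ndn, Pecam1, Pik3r1, Plin5, Ppara, Prom1, Sirt5, Slco1a1 and Socs3, and leaving out probe sets that may match several transcripts ended those of Hamp2, Hnf4a, Igf2bp3, Nags, Ndufb8, Pik3r1, Serpina4-ps1 and Tspan8. The call of Sult3a1 was lost with only the 10 restricted arrays (adjusted p = 0.0678) and that of Gpx1 with median centring (adjusted p = 0.0792). Scd1, Cyp2e1, Hspa5, Pck1, Timd4, Alas2 and Fads2, which did not pass, did so under at least 1 alternative, Scd1 (adjusted p = 0.0405) and Hspa5 (adjusted p = 0.0314) with only the 10 restricted arrays. For the difference between diets, leaving out 1 animal ended at least once the calls of Acot1, Acot2, Cpt2, Cyp17a1, Cyp2c29, Cyp2c55, Cyp2f2, Elovl3, Hsd3b5, Lcn2, Mfsd2a, Olig1, Plin2, Rsad2, Slc22a26, Smoc2 and Tfrc. Those of Acot2 (0.95, adjusted p = 0.0699), Smoc2 (-1.44, adjusted p = 0.111) and Rsad2 (0.81, adjusted p = 0.0971) were also lost with probe sets averaged. That of Rsad2 was lost too with median centring (adjusted p = 0.052) and with quantile normalization repeated (adjusted p = 0.0581). That of Hamp2 (-0.19, adjusted p = 0.45) was lost without probe sets that may match several transcripts.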
